A study of Sus scrofa with 16 samples.

Results

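The comparison described here sets the hippocampal transcriptome of preterm pigs with severe necrotizing enterocolitis (NEC) of the small intestine (Si-NEC) against that of preterm pigs without NEC lesions (No NEC). Its members are the 11 of 16 pigs that the sample labels place in these groups, 6 Si-NEC and 5 No NEC, and, of 16978 table entries above 0 in any pig, the 13590 whose FPKM averaged 0.5 or more across all 16 libraries. FPKM are fragment numbers scaled to transcript length and to the mapped reads of the library, and an entry is 1 row of the deposited table, usually 1 gene. All pigs were crossbred, delivered preterm by cesarean section and killed at about a week of age. They were given human donor milk of different types with decreasing parenteral nutrition, and the type each pig received is not in the labels. Si-NEC pigs had severe macroscopic lesions of the small intestine, whether or not the colon was affected, and No NEC pigs had no lesions in any gut region. Lesions arose spontaneously, so the groups were not assigned. The Si-NEC group held 3 female and 3 male pigs and the No NEC group 2 female and 3 male pigs. The remaining 5 pigs had severe lesions in the colon alone (Co-NEC) and serve only to ask whether Si-NEC pigs also differed from pigs with colon lesions. Each library came from 1 frozen left hippocampus of 1 pig.

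The hippocampus grows and forms its circuits rapidly around birth, and its granule neurons, myelin and vessels are still immature in preterm newborns. Inflammation in the gut can reach the brain through cytokines, bacterial products and blood leukocytes, and brain endothelium and microglia respond to such signals by inducing chemokines, adhesion molecules and NF-kB feedback genes. Severe illness also changes feeding, perfusion and glucocorticoid levels, each with its own known transcriptional response.

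The tissue carried hippocampal identity markers in both groups. SLC17A7, the vesicular glutamate transporter of forebrain excitatory neurons, was at 490 to 679 FPKM in Si-NEC and 548 to 655 FPKM in No NEC pigs, and PROX1, a transcription factor of dentate granule neurons, had medians of 8.67 and 7.02 FPKM. Si-NEC pig 223-15 and No NEC pig 230-15 stood apart from the others, with the largest FPKM sums (823320 and 864931, against 558369 to 645197 in the other 9) and the lowest median correlation across genes with the other pigs (0.933 and 0.902, against 0.949 to 0.958). The files hold no read counts, so the depth behind each value is unknown. Since whole tissue was sequenced, fewer cells of a type and less RNA per cell cannot be told apart.

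Across the transcriptome the groups differed little. At an adjusted p under 0.2 (limma on log2(FPKM + 0.5), Benjamini-Hochberg), 1 of 13590 entries was called, 0.00736% of those tested. Because of the 0.5 FPKM offset, log2 differences understate the change of genes at low FPKM. The median log2 difference was 0.02, and 90% of entries lay between −0.29 and 0.41. An unadjusted p under 0.05 was reached by 216 entries higher in Si-NEC pigs (1.59%) and 139 lower (1.02%), together 2.61% of those tested. All other genes named below had a limma adjusted p of 1, so what follows gives values and not calls.

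**Figure D1:**
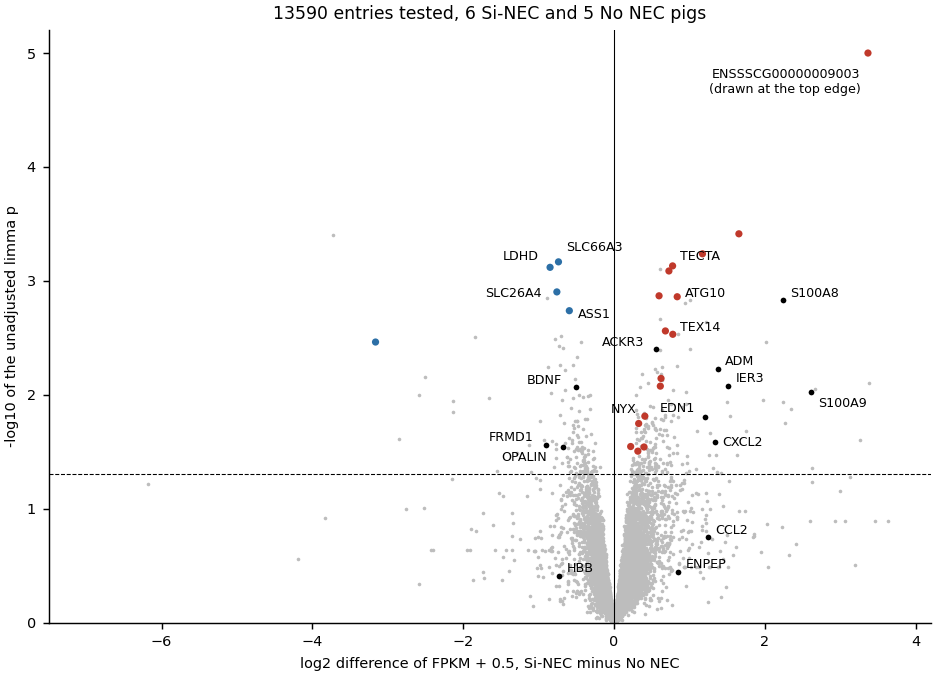
Each point is 1 of 13590 entries, placed by its log2 difference in FPKM + 0.5 (Si-NEC minus No NEC, horizontal) and the negative log10 of its unadjusted limma p (vertical, the dashed line marks 0.05). Red and blue points are the 16 and 5 entries whose groups did not overlap, black points are other named genes, and ENSSSCG00000009003, the 1 called entry, is drawn at the top edge.

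The called entry, ENSSSCG00000009003, carries no gene name in the reference used. It rose in Si-NEC pigs, where it was listed at 3.16 to 5.58 FPKM (median 5.05), against 0 in all 5 No NEC pigs (limma, adjusted p = 5.96e-07). Entries that every cell uses can also be listed at 0 in this table, so a 0 can be a failed estimate, and 2 of the 5 Co-NEC pigs had it at 4.12 and 2.21 FPKM. No call was left when the 382 entries listed at 0 in any pig were left out.

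For 21 entries (0.155%) every Si-NEC pig was beyond every No NEC pig, 16 of them higher (0.118%) and 5 lower (0.0368%). Of these, 7 higher and 4 lower had a gene symbol. They did not belong to 1 pathway, and none of them was in any of the lists of inflammatory, vascular, neuronal, glial or metabolic genes described further on. They were picked out of 13590 entries for this separation, so their values are a description and no test of them is given. For the other genes named, two-sided exact permutation tests ran over the 462 ways to split 6 pigs against 5, with 0.00216 as the smallest possible p. List members were named for a small p in their list, so these p values are not independent of the choice and are not adjusted.

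TECTA, encoding alpha-tectorin of the inner ear's tectorial membrane, had the highest level of the named entries that were higher. It was at 24.1 to 39.8 FPKM in Si-NEC pigs (median 33.5) and at 12.4, 18.7, 18.9, 22.1 and 23.4 FPKM in No NEC pigs. The groups were adjacent, since the lowest Si-NEC pig, 223-15, lay just above the highest No NEC pig. The log2 difference was 0.78 (standard error 0.17). ATG10, an E2-like enzyme needed to build autophagosomes, was at 3.30 to 7.64 FPKM (median 5.56) against 1.90, 2.30, 3.03, 3.15 and 3.29. Its lowest Si-NEC and highest No NEC values were nearly equal, and its log2 difference was 0.84 (standard error 0.20). TEX14, known from the intercellular bridges of germ cells, was at 0.835 to 2.42 FPKM (median 1.22) against 0.445 to 0.653, with the highest value in pig 224-15.

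Smaller differences of the same kind were seen for SLC8B1, the mitochondrial sodium-calcium exchanger, with 2 entries under its gene ID (log2 difference 0.33), NYX, a leucine-rich repeat protein of retinal bipolar cells (0.41), TSC22D4, a leucine zipper protein (0.40), and ZNF81, a zinc finger gene (0.32). For TSC22D4, Si-NEC pigs were at 6.72 to 8.06 FPKM (median 7.15) and No NEC pigs at 3.19, 5.64, 5.94, 6.21 and 6.49. No NEC pig 230-15 was by far the lowest, and without it the log2 difference was 0.23.

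Among the entries that were lower in every Si-NEC pig, 2 encode enzymes. LDHD, the mitochondrial enzyme that oxidizes D-lactate, was at 1.15 to 2.52 FPKM in Si-NEC pigs (median 1.87) and at 2.61, 3.21, 3.68, 4.07 and 4.15 FPKM in No NEC pigs, a log2 difference of −0.85 (standard error 0.19). Only pig 226-15 came near the lowest No NEC pig. ASS1, which joins citrulline and aspartate on the route to arginine, was at 1.14 to 2.23 FPKM (median 1.71) against 2.48, 2.52, 2.71, 2.85 and 3.49, a log2 difference of −0.59 (standard error 0.15). The gap between the groups was small beside the spread within them.

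The other two lower genes encode membrane proteins. SLC26A4, the anion exchanger pendrin, was at 0.242 to 0.774 FPKM (median 0.625) in Si-NEC and at 0.972, 1.13, 1.14, 1.63 and 1.73 FPKM in No NEC pigs, a log2 difference of −0.76 (standard error 0.18). SLC66A3 was at 1.56 to 2.34 FPKM (median 1.79) against 2.56, 2.63, 3.44, 3.72 and 4.80, a log2 difference of −0.74 (standard error 0.16). Both were low in every Si-NEC pig of either sex.

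Of the higher entries without a name, the most abundant was ENSSSCG00000024947, at 1163 to 1961 FPKM in Si-NEC pigs and 713, 719, 1022, 1077 and 1137 FPKM in No NEC pigs. The highest Si-NEC pig was 539-14 and the lowest 547-14, which lay just above the highest No NEC pig.

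**Figure D2:**
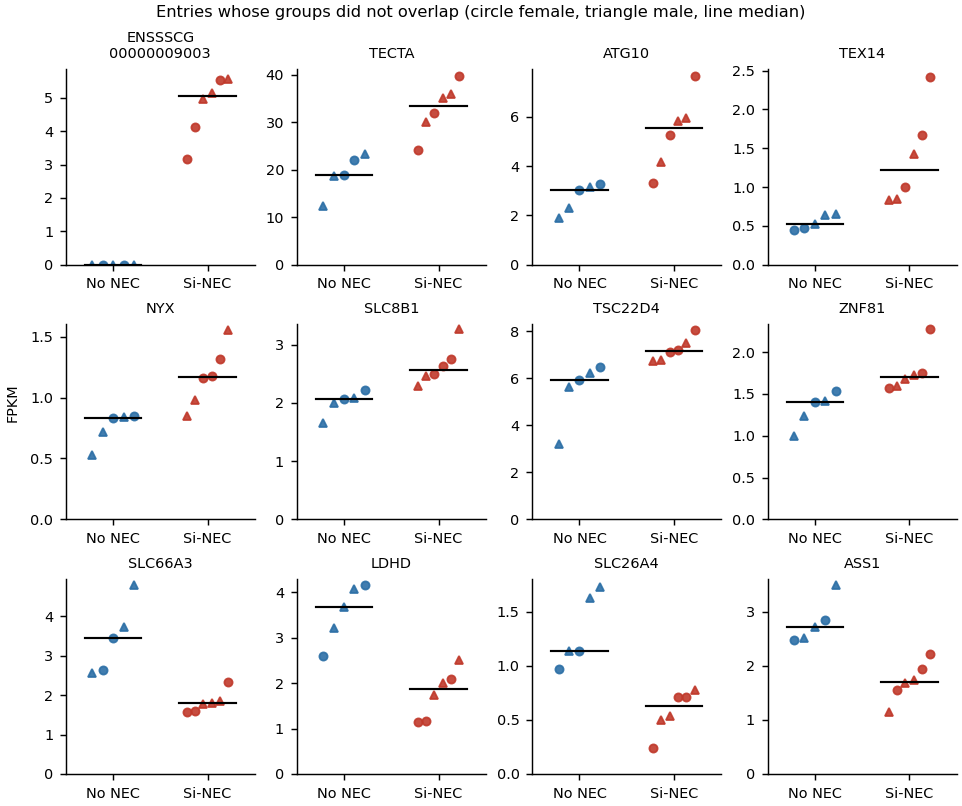
FPKM of each pig (vertical, from 0) in No NEC (blue) and Si-NEC (red) for the called entry and the 11 named genes whose groups did not overlap, with circles for females, triangles for males and a line at the median. In every panel the groups are separate, but in TECTA, ATG10, NYX, ZNF81 and SLC8B1, among others, the nearest pigs are close.

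Groups of genes were read through 39 lists, with 789 genes in all, of which 426 had a symbol in the table and passed the filter on low values. None of the 426 was called and none had groups that did not overlap. The filter averaged over all pigs, so a gene low in No NEC pigs could pass it through Si-NEC pigs. Such a gene, as CXCL2, CXCL8 or DDX60 below, was bound to have the higher mean in Si-NEC pigs. At an unadjusted p under 0.05 there were 12 higher and 8 lower. Over all entries tested the shares at that p were 1.59% higher and 1.02% lower, and they apply to the single lists as well. Beside each list stand the values over all entries tested, of which 53.8% were higher in Si-NEC pigs with a median log2 difference of 0.02.

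**Figure D3:**
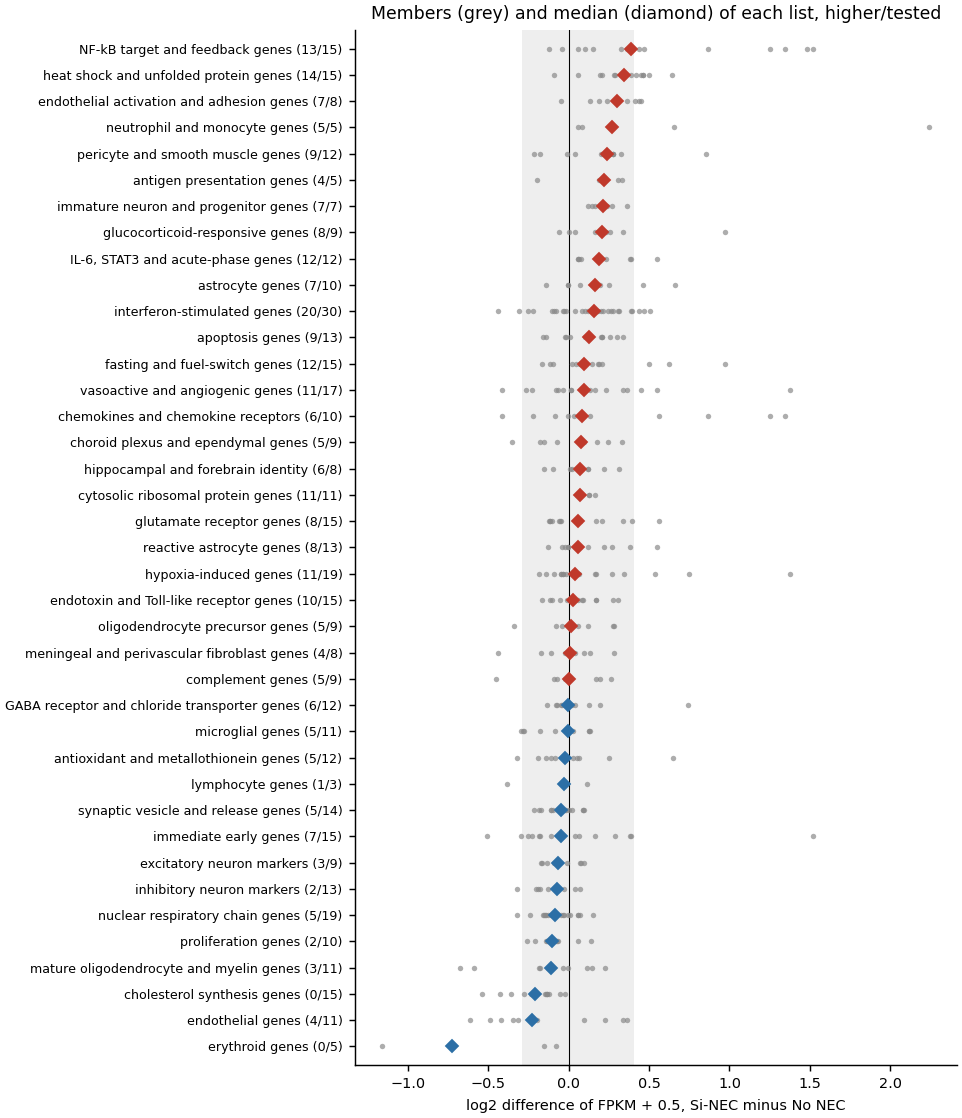
Log2 difference in FPKM + 0.5 (Si-NEC minus No NEC) of each tested member (grey) and the median (diamond, red above 0 and blue below) of the 39 lists, with the number of members higher and tested beside each name. The shaded band, −0.29 to 0.41, holds 90% of all entries, and most list medians lie well inside it.

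NF-kB targets and feedback genes stood highest. Of 15 tested, 13 were higher in Si-NEC pigs, with a median log2 difference of 0.39 and a range of −0.12 to 1.52. IER3, an immediate early survival gene induced by NF-kB and stress, was at 1.59 to 11.3 FPKM in Si-NEC pigs (median 2.48) and at 0.0929, 0.912, 1.12, 1.31 and 1.76 FPKM in No NEC pigs. Every Si-NEC pig but 547-14 was above every No NEC pig, something that 0.817% of all entries did in at least 5 Si-NEC pigs, and pigs 246-15 and 224-15 were far above the rest (exact permutation p = 0.00866). CXCL2, a neutrophil chemokine, was at 0.219 to 7.54 FPKM (median 0.601) against 0, 0, 0.136, 0.202 and 0.266. Pig 246-15 was again highest and pig 547-14 alone lay within the No NEC range (log2 difference 1.34, standard error 0.53). CXCL2 and CXCL8 averaged 0.121 and 0.0731 FPKM in No NEC pigs and passed the filter on low values through Si-NEC pigs. Both count among the 13 higher, and no permutation p is given for CXCL2. NFKB1, chosen for mention after its values were seen, was listed at 0 in 1 Si-NEC and 2 No NEC pigs and counted as higher on the log2 scale although its mean was lower in Si-NEC pigs.

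Pig 246-15 carried much of this list. Its mean log2 level over the 15 genes was 1.82 above the No NEC mean, against −0.36 to 0.83 in the other Si-NEC and −0.39 to 0.35 in the No NEC pigs. The lowest pigs, 540-14, 547-14 and 230-15, were those with NFKB1 listed at 0, so the low ends of these ranges depend on that gene. Without pig 246-15, 13 of 15 members were still higher, but the median log2 difference was 0.15, while without No NEC pig 228-15 it was 0.61.

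Genes of the IL-6 and STAT3 pathway and the acute phase were all higher, 12 of 12 tested, with small differences from 0.06 to 0.55 and a median of 0.19. OSMR, the receptor for oncostatin M, was at 1.45 to 3.88 FPKM in Si-NEC pigs (median 1.70) and at 0.847, 0.901, 1.42, 1.57 and 1.77 FPKM in No NEC pigs. Pigs 246-15 and 224-15 stood above the No NEC range, 226-15 lay just above it and the other 3 within it (log2 difference 0.55, standard error 0.24, exact permutation p = 0.0714). Without pig 246-15, 11 of 12 members were higher, with a median of 0.15.

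Neutrophil and monocyte genes were few at this level of expression. Of 20 listed, 11 had a symbol in the table and 5 passed the filter, all 5 of them higher with a median log2 difference of 0.27. The median ran from 0.17 without pig 226-15 to 0.44 without No NEC pig 228-15, was −0.16 in the pigs with number suffix 14 alone, and 4 of 5 were higher without pig 246-15. S100A8, a calcium-binding alarmin abundant in neutrophils and monocytes, was at 14.8, 21.2, 2.21, 25.0, 7.11 and 4.93 FPKM in Si-NEC pigs 223-15, 224-15, 547-14, 246-15, 539-14 and 226-15, and at 0.764 to 3.08 FPKM in No NEC pigs. The 3 female Si-NEC pigs were the highest and pig 547-14 lay within the No NEC range. Its partner S100A9, added after its values were seen and named only through group means that the study prints, followed the same order at its ends, with 29.1 FPKM in pig 246-15 and 0.433 FPKM in pig 547-14, against 0 to 3.52 FPKM in No NEC pigs (log2 difference 2.61, standard error 0.84, exact permutation p = 0.0325).

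Other leukocyte genes differed less. The 4 remaining tested members of the neutrophil and monocyte list had log2 differences between 0.06 and 0.65. The summed level of the 11 members found was 16.9 to 65.5 FPKM in Si-NEC and 19.0 to 27.5 FPKM in No NEC pigs, and CSF3R, the receptor for granulocyte colony-stimulating factor, was listed at 0 in all 11 pigs. Of 3 lymphocyte genes tested, 1 was higher, and the summed level of the 13 found was 3.58 to 6.66 FPKM against 4.44 to 10.5 FPKM. The part of blood cells in the values of S100A8 and S100A9 was not tested.

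Chemokines and their receptors divided. Of 10 tested, 6 were higher with a median log2 difference of 0.08, CXCL2 and CXCL8 among them. Only CXCL2 and ACKR3 had an unadjusted p under 0.05, and CXCL2 passed the filter through Si-NEC pigs. ACKR3, a scavenger receptor for CXCL12, was at 12.2 to 16.5 FPKM in Si-NEC pigs (median 15.1) and at 6.78, 9.03, 9.12, 11.6 and 12.7 FPKM in No NEC pigs. It was of similar height in the 6 Si-NEC pigs, 4 of which exceeded the No NEC range (log2 difference 0.56, standard error 0.16, exact permutation p = 0.00866). CCL2, a monocyte chemokine, was at 70.9 FPKM in pig 246-15, but its median was 2.02 FPKM in Si-NEC and 1.09 FPKM in No NEC pigs and its log2 difference was 0.42 without that pig.

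Genes for sensing endotoxin and for complement were near the level of all entries. For endotoxin and Toll-like receptor genes 10 of 15 were higher with a median log2 difference of 0.03, and for complement 5 of 9 with a median of 0.0039. Antigen presentation genes were higher for 4 of 5, median 0.22, but for 2 of 5 without pig 246-15, when the median was −0.11.

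Interferon-stimulated genes showed the response of a single pig. Of 30 tested, 20 were higher with a median log2 difference of 0.15, and none had an unadjusted p under 0.05. The mean log2 level of the list was 2.45 above the No NEC mean in pig 246-15, whereas in the other 5 Si-NEC pigs it lay between −0.545 and −0.094. Leaving out pig 246-15 turned the direction, with 4 of 30 genes higher and a median of −0.27. USP18, which trims ISG15 from proteins and dampens interferon signaling, was at 52.8 FPKM in pig 246-15 and 0.785 to 1.70 FPKM in the other Si-NEC pigs, against 0.848 to 6.15 FPKM in No NEC pigs. DDX58, the RNA sensor RIG-I, was at 29.0 FPKM in that pig and 2.13 to 3.15 FPKM in the others, against 2.06 to 3.66 FPKM. DDX60, a helicase of the same antiviral response, was at 11.1 FPKM in it and 0.0477 to 0.302 FPKM in the others, against 0.0964 to 0.801 FPKM. DDX60 passed the filter on low values only through pig 246-15. Among the No NEC pigs, 253-15 had the highest mean over the list, 0.58.

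**Figure D4:**
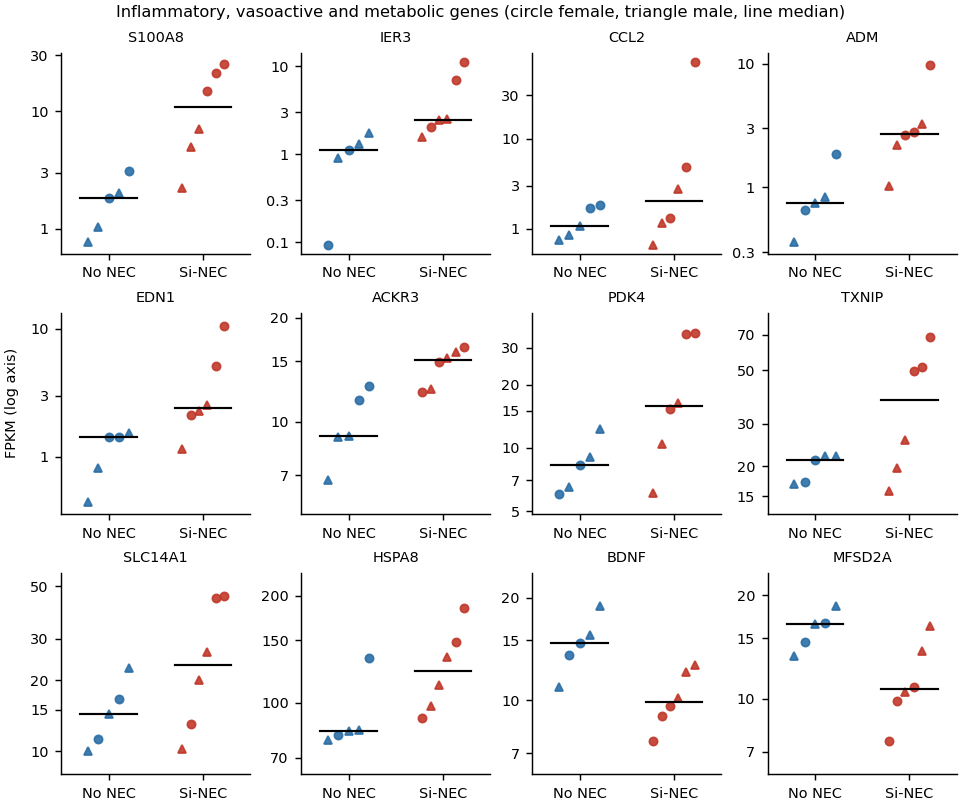
FPKM of each pig (vertical, log axis with its own range in each panel) in No NEC (blue) and Si-NEC (red) for 12 inflammatory, vasoactive, metabolic and neuronal genes, with circles for females, triangles for males and a line at the median. The groups overlap in every panel, and pig 246-15 has the highest value of CCL2 (70.9 FPKM) and ADM (9.72 FPKM).

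Vasoactive peptides were among the larger differences. ADM, encoding the vasodilator adrenomedullin, was at 1.02 to 9.72 FPKM in Si-NEC pigs (median 2.71) and at 0.364, 0.658, 0.752, 0.836 and 1.88 FPKM in No NEC pigs. Each Si-NEC pig except 547-14 exceeded the No NEC range (log2 difference 1.38, standard error 0.41, exact permutation p = 0.0130), and without pig 246-15 the difference was 1.06. EDN1, the vasoconstrictor endothelin 1, named through the printed group means, was at 1.14 to 10.6 FPKM (median 2.40) against 0.447, 0.823, 1.42, 1.43 and 1.52, with the same pig, 547-14, as its only exception. The list of vasoactive and angiogenic genes as a whole was not displaced, with 11 of 17 higher and a median log2 difference of 0.09, or 0.03 without pig 226-15.

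Hypoxia-induced genes were higher for 11 of 19 tested, near the 53.8% of all entries, with a median log2 difference of 0.04. Besides ADM, P4HA2, a collagen prolyl hydroxylase, had an unadjusted p under 0.05. It was at 3.33 to 11.1 FPKM in Si-NEC pigs (median 4.18) and at 1.58, 2.24, 2.82, 3.64 and 4.76 FPKM in No NEC pigs, so that only the female pigs 223-15 and 224-15 exceeded the No NEC range (log2 difference 0.75, exact permutation p = 0.0714).

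Endothelial genes were lower on balance, while genes of endothelial activation were higher. Of 11 endothelial genes tested 4 were higher, with a median log2 difference of −0.23. The 3 with an unadjusted p under 0.05 were all lower, as were 1.02% of all entries at that p. MFSD2A, the lipid transporter of the blood-brain barrier that carries docosahexaenoic acid, was at 7.54 to 16.3 FPKM in Si-NEC pigs (median 10.6) and at 13.3, 14.6, 16.5, 16.6 and 18.5 FPKM in No NEC pigs. Pigs 547-14 and 226-15 were within the No NEC range, and the other 4 lay below it (log2 difference −0.49, standard error 0.18, exact permutation p = 0.0303). ERG, an endothelial transcription factor, was at 1.69 to 3.48 FPKM (median 2.54) against 2.75, 3.06, 3.51, 3.63 and 4.57 (log2 difference −0.42, standard error 0.17, exact permutation p = 0.0303). SLC38A5, a glutamine transporter of brain capillaries, was at 9.20 to 22.1 FPKM (median 15.5) against 12.6, 19.6, 28.9, 29.4 and 29.9, and here the groups overlapped widely.

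PECAM1, a defining endothelial marker, was at 7.09 to 13.4 FPKM in Si-NEC and 5.22 to 12.4 FPKM in No NEC pigs. The summed level of the 11 endothelial genes found was 88.5 to 106 FPKM in Si-NEC and 97.6 to 127 FPKM in No NEC pigs. Of 8 activation and adhesion genes 7 were higher, with a median log2 difference of 0.30, and 6 of 8 without pig 246-15, with a median of 0.17. Of 12 pericyte and smooth muscle genes 9 were higher, with a median of 0.24, which was 0.12 without pig 223-15 and 0.08, with 7 of 12 higher, without pigs 223-15 and 230-15. The highest of these was ENPEP, the pericyte enzyme that cleaves angiotensin II, but its value of 96.3 FPKM in pig 226-15 stood against 1.30 to 2.25 FPKM in the other Si-NEC and 1.14 to 3.06 FPKM in the No NEC pigs. Without that pig its log2 difference was −0.05.

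Genes of fasting and fuel switching were higher for 12 of 15 tested, with a median log2 difference of 0.09, and glucocorticoid-responsive genes for 8 of 9, median 0.21. The fasting median was 0.03 without pig 223-15, and 9 of 15 were higher without pigs 223-15 and 230-15. PDK4, the kinase that closes pyruvate dehydrogenase when fat is burned and a target of glucocorticoids, was the leading gene of both. It was at 34.7, 35.1, 6.10, 15.3, 10.4 and 16.4 FPKM in Si-NEC pigs 223-15, 224-15, 547-14, 246-15, 539-14 and 226-15, and at 6.06 to 12.3 FPKM in No NEC pigs. Pigs 223-15 and 224-15 were far above all other pigs, and pigs 547-14 and 539-14 lay within the No NEC range. Without pig 246-15, 5 of 9 glucocorticoid-responsive genes were higher, and without No NEC pig 550-14 their median was 0.10.

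Heat shock and unfolded protein genes were higher for 14 of 15 tested, with a median log2 difference of 0.34 and a range of −0.09 to 0.64. HSPA8, the constitutive cytosolic chaperone HSC70, was at 90.7 to 185 FPKM in Si-NEC pigs (median 123) and at 78.7, 81.1, 83.1, 83.7 and 133 FPKM in No NEC pigs. All Si-NEC pigs were above 4 of the 5 No NEC pigs, and only 228-15 reached into the Si-NEC range (log2 difference 0.46, standard error 0.20, exact permutation p = 0.0628). Pigs 223-15 and 224-15 had the highest mean log2 levels of the list, 0.96 and 0.73 above the No NEC mean. The other 4 Si-NEC pigs lay between −0.16 and 0.24, within the No NEC range of −0.28 to 0.39, so the groups overlapped. Without pigs 223-15 and 230-15, 15 of 15 were higher with a median of 0.27.

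Every one of the 15 cholesterol synthesis genes tested, from the first committed enzymes to the last reductases, was lower in Si-NEC pigs. The differences were small, −0.54 to −0.02, with a median of −0.21, and 46.2% of all entries were lower. MVK, mevalonate kinase, was at 7.95 to 14.4 FPKM in Si-NEC pigs (median 11.3) and at 11.04, 15.4, 16.3, 17.2 and 23.4 FPKM in No NEC pigs. The highest Si-NEC pig lay below 4 of 5 No NEC pigs (log2 difference −0.54, standard error 0.20, exact permutation p = 0.0346). INSIG1, the sterol-regulated brake on the pathway, lay under the No NEC range in 5 Si-NEC pigs, as did 0.596% of all entries in at least 5, and it was named after its values were seen. All 15 stayed lower without pigs 223-15 and 230-15 and without pig 246-15, and 14 without pig 223-15 alone, but without No NEC pig 230-15 alone the median was −0.11. The mean log2 level of the list was −0.52 to 0.02 in Si-NEC and −0.18 to 0.30 in No NEC pigs, so the groups overlapped.

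Nuclear genes of the respiratory chain and cytosolic ribosomal protein genes varied with pigs rather than with groups. Pigs 223-15 and 230-15, 1 from each group, had mean log2 levels of 0.52 and 0.70 for respiratory chain genes and of 0.82 and 0.84 for ribosomal protein genes, while the other 9 pigs lay between −0.29 and 0.08 for both. Of 11 ribosomal protein genes all were higher in Si-NEC pigs with a median log2 difference of 0.07, but 1 of 11 without pig 223-15. Of 19 respiratory chain genes 5 were higher, median −0.09, and 8 without both pigs. COX5B, a cytochrome oxidase subunit named after its values were seen, lay under the No NEC range in 5 Si-NEC pigs. So did 0.596% of all entries in at least 5.

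Antioxidant and metallothionein genes were higher for 5 of 12, with a median of −0.03. SRXN1, sulfiredoxin, which restores oxidized peroxiredoxins, was at 15.9 to 20.4 FPKM in Si-NEC pigs (median 18.9) and at 20.3, 21.1, 23.1, 24.8 and 26.5 FPKM in No NEC pigs. It was low in 5 of 6 Si-NEC pigs, and the sixth, 246-15, lay just above the lowest No NEC pig (log2 difference −0.32, standard error 0.10, exact permutation p = 0.00649). Of 13 apoptosis genes 9 were higher with a median of 0.12, which was 0.05 without pig 246-15 and 0.23 without pig 547-14. BAK1, a pore-forming effector of mitochondrial apoptosis, was at 4.29 to 6.80 FPKM (median 5.59) against 3.98, 4.19, 4.24, 4.36 and 4.62, and of the Si-NEC pigs only the lowest, 547-14, was not above the No NEC range (log2 difference 0.34, standard error 0.13, exact permutation p = 0.0216).

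Among neuronal genes, those of immature neurons and progenitors were the only list in which every Si-NEC pig had a higher mean than every No NEC pig. Of 17 genes listed, 7 were tested, namely DCX, SOX11, NES, PAX6, TBR1, IGFBPL1 and VIM. Their mean log2 level was 0.07 to 0.42 in Si-NEC and −0.06 to 0.03 in No NEC pigs relative to the No NEC mean. The nearest pigs were Si-NEC pig 539-14 at 0.070 and No NEC pig 540-14 at 0.033. Over all entries tested, the same mean ran from −0.052 to 0.092 across the pigs of both groups. All 7 were higher, with log2 differences of 0.12 to 0.36, and all 7 stayed so without pig 223-15, whose mean was the highest, with a median of 0.13 in place of 0.21. SOX11, a transcription factor of newborn neurons, was at 11.1 to 17.3 FPKM in Si-NEC pigs (median 15.1) and at 8.39, 10.1, 11.4, 14.4 and 14.4 FPKM in No NEC pigs. Each Si-NEC pig except 246-15 exceeded the No NEC range (log2 difference 0.36, standard error 0.16, exact permutation p = 0.0476), and the difference was −0.03 in the female pigs alone. The list median was 0.29 in female and 0.02 in male pigs. VIM, an intermediate filament of immature cells, is also made by reactive astrocytes and vessels.

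NEUROD1, a factor of granule neuron differentiation and 1 of 8 genes tested for hippocampal and forebrain identity, was at 8.69 to 11.7 FPKM (median 9.52) in Si-NEC and at 6.70, 6.74, 7.60, 8.12 and 9.64 FPKM in No NEC pigs. Pig 228-15 was the only No NEC pig inside the Si-NEC range (log2 difference 0.31, standard error 0.12, exact permutation p = 0.0173). The list had 6 of 8 genes higher and a median of 0.07. Proliferation genes were higher for 2 of 10, with a median of −0.10, which ran from −0.17 without pig 246-15 to −0.06 without pig 539-14.

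Markers of mature neurons were level or slightly lower. Of 9 excitatory markers 3 were higher, with a median log2 difference of −0.06, and of 13 inhibitory markers 2 were higher, with a median of −0.07. GAD1, the enzyme that makes most GABA, was at 78.0 to 86.2 FPKM in Si-NEC pigs (median 83.1) and at 84.6, 93.1, 94.5, 96.4 and 103 FPKM in No NEC pigs. The 6 Si-NEC values were close together, and only pig 226-15 was above the lowest No NEC pig (log2 difference −0.19, standard error 0.08, exact permutation p = 0.00433). GAD2, the synaptic form of the enzyme, ranged from 17.1 to 23.6 FPKM against 17.7 to 26.1 FPKM.

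Synaptic vesicle genes were higher for 5 of 14 tested (median −0.05), glutamate receptor genes for 8 of 15 (0.06) and GABA receptor and chloride transporter genes for 6 of 12 (−0.0063). Immediate early genes were higher for 7 of 15, with a median of −0.05. BDNF, the activity-dependent neurotrophin, was lower. It was at 7.62 to 12.7 FPKM in Si-NEC pigs (median 9.92) and at 10.95, 13.6, 14.8, 15.6 and 18.9 FPKM in No NEC pigs. Only pigs 547-14 and 226-15, both male, were above the lowest No NEC pig (log2 difference −0.51, standard error 0.16, exact permutation p = 0.0152).

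In the glial lists, mature oligodendrocyte and myelin genes were higher for 3 of 11 with a median log2 difference of −0.11, which became 0.09 without No NEC pig 230-15 and −0.22 without 228-15. OPALIN, a membrane protein of myelinating oligodendrocytes, was at 23.0 to 53.4 FPKM in Si-NEC pigs (median 29.6) and at 33.0, 34.2, 52.3, 63.5 and 83.6 FPKM in No NEC pigs. Pig 547-14 had by far the highest Si-NEC value, and the other 5 were at 33.1 FPKM or less. Oligodendrocyte precursor genes were higher for 5 of 9, median 0.01. Astrocyte genes were higher for 7 of 10, median 0.16, but for 4 of 10 without pigs 223-15 and 230-15, with a median of −0.03, and the median was 0.04 without No NEC pig 230-15 alone. SLC14A1, the urea transporter, was at 45.5 and 44.6 FPKM in pigs 223-15 and 224-15 and at 10.3 to 26.4 FPKM in the other Si-NEC pigs, against at most 22.5 FPKM in No NEC pigs. Reactive astrocyte genes were higher for 8 of 13, median 0.06, and GFAP was at 438.5 to 937.5 FPKM in Si-NEC and 532 to 700.2 FPKM in No NEC pigs.

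Microglial genes were not displaced, with 5 of 11 higher and a median of −0.0072. P2RY12, the purinergic receptor of resting microglia, was at 5.02 to 22.9 FPKM in Si-NEC and 9.57 to 16.8 FPKM in No NEC pigs, so the spread within the Si-NEC group was wider than that in No NEC. Meningeal and perivascular fibroblast genes (4 of 8 higher, median 0.0071) and choroid plexus and ependymal genes (5 of 9, median 0.07) gave no displacement. All 5 erythroid genes tested were lower, with a median log2 difference of −0.73, but No NEC pig 550-14 had HBB, beta globin, at 1281 FPKM. Without that pig the list median was −0.18 and the log2 difference of HBB −0.05. The median of HBB was 198 FPKM in Si-NEC and 128 FPKM in No NEC pigs.

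The study's own list of genes for this comparison came from Cuffdiff at an adjusted p under 0.2, a different test from limma on FPKM. By qPCR in larger groups of pigs, the study reported changes in the same direction for listed genes. Among them were S100A8, PDK4, IER3, TXNIP, OPALIN, HBB and ALAS2, and the overlap with the pigs used here is not stated. Chosen on the same pigs, the list is no independent evidence, and it held 27 names with an entry tested. Of these 20 were higher and 7 lower, and none was called. Over all entries tested, 53.8% were higher. An unadjusted p under 0.05 was reached by 8 of the names, against 2.61% of all entries. For 6 names, at least 5 of 6 Si-NEC pigs lay outside the No NEC range on the same side. Of all entries, 0.817% had this above the range and 0.596% below it. Several of the 27 names rested on 1 pig. ADAM8, a leukocyte metalloprotease, was at 21.6 FPKM in pig 224-15, and it passed the filter on low values only through that pig. The remaining Si-NEC pigs had 0.112 to 0.433 FPKM and the No NEC pigs 0.156 to 0.291 FPKM. SORCS1, a neuronal sorting receptor, was at 26.4 FPKM in the same pig and 1.83 to 8.64 FPKM in the others, against 1.12 to 4.21 FPKM in No NEC pigs. CEACAM19, an adhesion molecule of the CEA family, was counted as lower through No NEC pig 230-15 at 22.0 FPKM, and without it the log2 difference was −0.06.

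Others were spread over more pigs. FRMD1, a FERM domain gene, was at 6.15 FPKM in pig 547-14 and had a median of 1.90 FPKM over the 6 Si-NEC pigs, against 2.43, 2.98, 5.23, 6.34 and 7.27 FPKM in No NEC pigs (log2 difference −0.90, standard error 0.36, exact permutation p = 0.0541). CLEC2B, a ligand of an activating receptor on natural killer cells, was at 2.67 to 8.46 FPKM in the 3 female and 0.80 to 1.22 FPKM in the 3 male Si-NEC pigs, against 0.721 to 1.57 FPKM. LRRC32, the TGF-beta docking protein GARP, was at 0.772 to 7.58 FPKM (median 1.60) against 0.388 to 1.79, with pigs 246-15 and 224-15 above the No NEC range. ARRDC3, an arrestin-related gene of metabolic control, was at 25.9 and 20.3 FPKM in pigs 223-15 and 224-15 and 5.85 to 12.7 FPKM in the others, against 5.05 to 12.4 FPKM. CRYAB, a small heat shock protein named through the group means, was at 128 and 63.7 FPKM in the same 2 pigs and 8.56 to 25.3 FPKM in the others, against 12.3 to 34.6 FPKM. AGXT2, a mitochondrial aminotransferase, was at 0.0441 to 15.4 FPKM (median 2.40) against 0.0401 to 2.47.

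The pigs of the Si-NEC group differed among themselves. Pig 246-15 had the highest mean level of all 11 pigs in 13 of the 39 lists and pig 223-15 in 9, while pigs 547-14 and 539-14 were highest in none and lowest in 6 and 7. No NEC pig 230-15 was highest in 8 and lowest in 6. For the inflammatory lists pig 547-14 lay within or below the No NEC range, with −0.36 for NF-kB genes, −0.23 for chemokines and −0.07 for IL-6 and STAT3 genes. Its NF-kB value includes NFKB1, listed at 0 in this pig, which lowers the mean and can be a failed estimate.

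**Figure D5:**
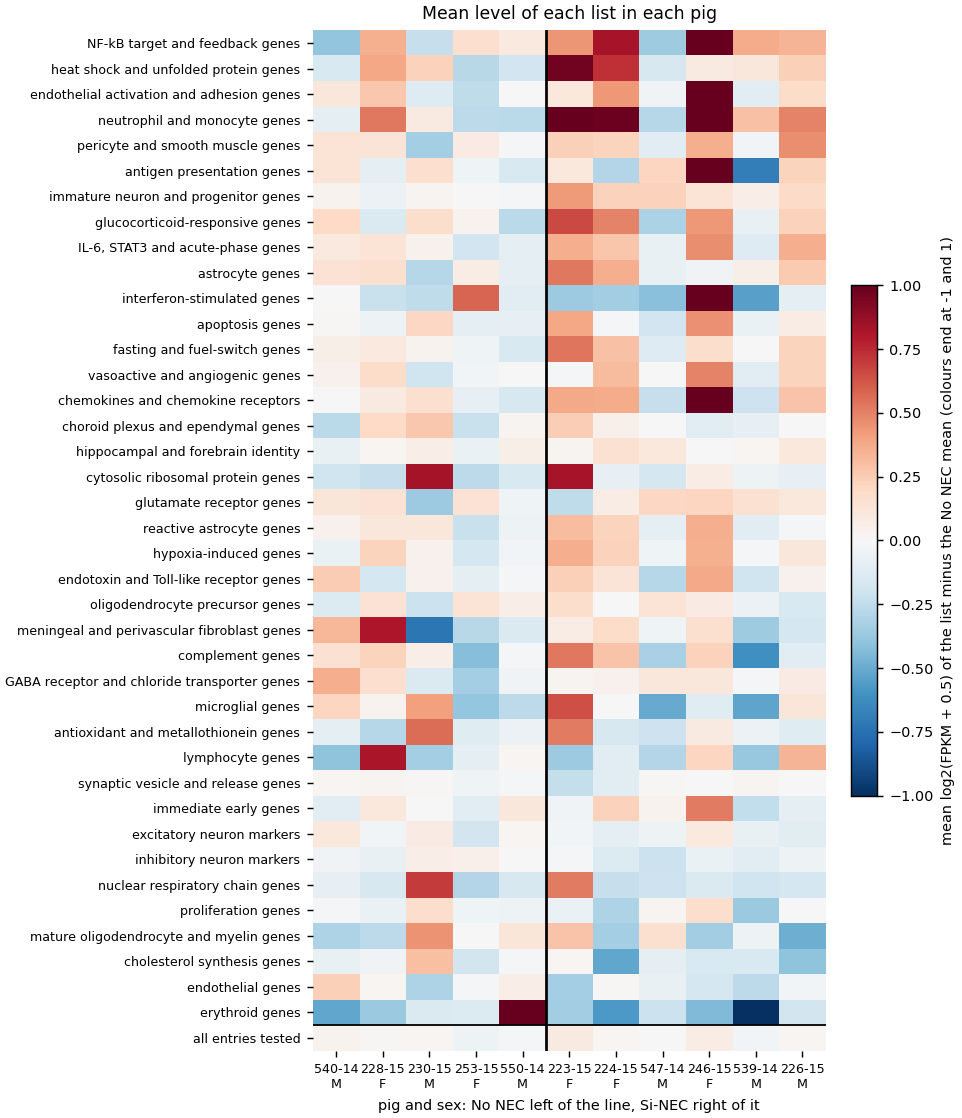
Mean log2(FPKM + 0.5) of each list in each pig minus the No NEC mean, with No NEC pigs left and Si-NEC pigs right of the line and lists ordered by median difference. Pig 246-15 is dark red for NF-kB (1.82), interferon-stimulated (2.45) and chemokine genes (1.48), pigs 223-15 and 230-15 share high ribosomal protein genes (0.82 and 0.84), and the immature neuron row is red in all 6 Si-NEC pigs.

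The high pigs shared labels. The 3 female Si-NEC pigs, 223-15, 224-15 and 246-15, also carry the suffix 15 in their numbers, as does male pig 226-15, whereas 547-14 and 539-14 are male and carry 14. TXNIP, a glucose-responsive inhibitor of thioredoxin named through the group means, was at 68.9, 51.4 and 49.8 FPKM in the 3 females and at 15.8, 19.6 and 25.7 FPKM in the 3 males, against 16.8 to 22.1 FPKM in No NEC pigs. A model with group, sex and their product gave a difference between the male and the female effect of −1.54 for TXNIP on the log2 scale, with a limma adjusted p of 0.439. An unadjusted p under 0.05 for that term was found for 7 of the 55 named genes, CA2, CLEC2B, IER3, PDK4, SOX11, TMEM167B and TXNIP, against 10.8% of all entries tested, so the share was near the background. CA2, a carbonic anhydrase, was at 64.5 FPKM in pig 223-15, 28.5 in 224-15 and 11.4 to 19.5 in the other Si-NEC pigs, against 8.11 to 17.6 FPKM. With 2 pigs of each group, those with suffix 14 alone gave log2 differences of −0.16 for PDK4, −0.13 for TXNIP, −0.01 for CA2 and −0.06 for SLC14A1. List medians in these pigs were 0.14 for NF-kB, 0.25 for heat shock, 0.12 for immature neuron and −0.15 for cholesterol synthesis genes. Medians that were above 0 in all pigs turned for several lists. They were −0.03 for IL-6 and STAT3, −0.26 for chemokine and −0.17 for glucocorticoid-responsive genes. For pericyte, endothelial activation and fasting genes they were −0.12, −0.10 and −0.06. Sex and number suffix cannot be told apart in the high Si-NEC pigs.

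To see where Si-NEC pigs also differed from pigs with colon lesions, the same genes were set against those of Co-NEC pigs, and both comparisons share the 6 Si-NEC pigs. Of 55 named genes, 17 had an unadjusted p under 0.05, against 5.64% of all entries, and none had an adjusted p under 0.2, a threshold passed by 0.0147% of entries. The named genes were chosen partly for their height in the same Si-NEC pigs, so the first share is a description. The p values below are not independent of that choice either. S100A8 was at 0.734 to 2.31 FPKM in Co-NEC pigs, a range that each Si-NEC pig except 547-14 exceeded (log2 difference 2.47, exact permutation p = 0.00649). BDNF was at 11.9 to 14.6 FPKM in Co-NEC pigs, a range under which 4 of the 6 Si-NEC pigs lay (log2 difference −0.37, standard error 0.13, exact permutation p = 0.0216). ACKR3 (0.36), NEUROD1 (0.32), ADM (1.26) and EDN1 (1.08) had log2 differences from Co-NEC pigs with exact permutation p values of 0.0195 to 0.0325. For TECTA, ATG10 and LDHD the differences from Co-NEC pigs were 0.40, 0.21 and −0.25, with exact permutation p = 0.123, 0.416 and 0.204. The list medians between Si-NEC and Co-NEC pigs were 0.42 for NF-kB, −0.19 for cholesterol synthesis with 0 of 15 higher, and 0.13 for heat shock genes.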

How the data were processed

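RNA from the left hippocampus of 16 pigs was sequenced, and the authors aligned reads to Sscrofa10.2 (TopHat2 2.1.1) and deposited FPKM values per entry (Cufflinks 2.2.1). Which step wrote the deposited table is not given in the sources used here. Of 24594 rows, 1779 identical repeats were dropped. Entries with a mean FPKM of at least 0.5 were tested as log2(FPKM + 0.5) with limma 3.58.1 (R 4.3.3, moderated with a mean trend, Benjamini-Hochberg adjusted p under 0.2), fitted on the 2 groups compared. The steps were tested on simulated data. Single genes also had two-sided exact permutation tests. Pigs were grouped by their labels. Litters are not in the labels, so pigs may not be independent.

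Named were every called entry, up to 10 entries with a symbol per direction whose groups did not overlap, the study's gene names for this comparison, and in each list up to 3 members with the smallest p, if unadjusted p was under 0.05. The members and lists were chosen with earlier results of these data known. Symbols covered 66.7% of entries tested. A further 7 of the study's names were matched to entries through the printed group means. The table's group means were first rescaled by the median ratio of printed to table means. A match then had to lie within 2% of the printed means, with the next-best entry much further off. The depth is unknown, as the deposited table holds no counts. Alternatives were other offsets, filters, scalings, covariates and weights, and leaving out pigs. No sequence was used, and 1 gene is not reported here.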

Additional observations from a re-analysis of the deposited data

Results flagged for a closer look

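In 13 of 110 groups of pigs examined for the named genes, the highest or the lowest pig lay unusually far from the others of its group (Dixon's ratio), which chance gives in about 1 in 20 groups. Of the Si-NEC pigs, 246-15 was the one apart for CCL2 (70.9 FPKM), USP18 (52.8 FPKM), DDX58 (29.0 FPKM) and DDX60 (11.1 FPKM). Pig 224-15 was apart for ADAM8 (21.6 FPKM) and, by a small margin in FPKM, ZNF81 (2.27 FPKM). Pig 226-15 was apart for ENPEP (96.3 FPKM) and pig 547-14 for FRMD1 (6.15 FPKM). Of the No NEC pigs, 230-15 was apart for CEACAM19 (22.0 FPKM), CLEC2B (1.57 FPKM), SORCS1 (1.12 FPKM, the lowest of its group) and TSC22D4 (3.19 FPKM, the lowest), and pig 228-15 for HSPA8 (133 FPKM).

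The difference between Si-NEC and No NEC pigs differed by sex for 1 entry, ENSSSCG00000009200, without a name in the reference used. The difference between the male and the female log2 difference was 15.44 (limma, adjusted p = 5.29e-11). It was listed at 21769 and 22543 FPKM in the 2 female No NEC pigs and at 0 in all other Si-NEC and No NEC pigs. Among Co-NEC pigs it was listed at 42910 FPKM in male pig 552-14 and at 0 in the others, both females included, and a 0 can be a failed estimate.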

How the results depend on the processing

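The 1 call between Si-NEC and No NEC pigs became 0 when entries listed at 0 in any pig were left out, 2 with the number suffix as covariate, 4 with array weights, and 1 to 3 when single pigs were left out (3 without No NEC pig 540-14), and within subsets 12 in females, 3 in males, 4 in suffix 15 and 2 in suffix 14 alone. Calls between Si-NEC and Co-NEC pigs, 2 at first, were 1 with an offset of 0.1, without the filter, with all 3 groups in one fit, with sex or suffix as covariate, without pigs 223-15 and 230-15, or at an adjusted p of 0.05, 0 without entries at 0, 201 with array weights, 1 to 12 when single pigs were left out, and within subsets 2061 in males (4 at an adjusted p of 0.05), 5 in females, 8 in suffix 14 and 2 in suffix 15 alone. Calls for the sex term, 1 at first, were 4 without the filter, 0 without entries at 0, 4 with array weights, 3 without pigs 223-15 and 230-15, and 1 to 10 when single pigs were left out. The causes of these moves were not tested. The 2 first calls against Co-NEC pigs were COX1 and ENSSSCG00000010942. COX1 was listed at 0 in all Si-NEC and No NEC pigs and at 9929 to 15986 FPKM in Co-NEC pigs. ENSSSCG00000010942 was listed at 0 in all Co-NEC pigs but 231-15. Both calls rest on values of 0, which can be failed estimates.

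Of single genes, log2 differences turned in pigs with suffix 14 alone for CA2 (−0.0099), CCL2 (−0.0301), DDX58 (−0.49), DDX60 (−0.17), ENPEP (−0.75), LRRC32 (−0.0282), PDK4 (−0.16), SLC14A1 (−0.0614), TXNIP (−0.13) and USP18 (−1.08). They turned in suffix 15 alone for HBB (0.11), in females alone for CEACAM19 (0.47) and SOX11 (−0.0275), and in males alone for CLEC2B (−0.0078), DDX58 (−0.16), TXNIP (−0.0115) and USP18 (−0.86). USP18, at −0.74 to 0.38 when single pigs were left out, also turned with sex as covariate (−0.0269), with array weights (−0.0163), without No NEC pig 228-15 (−0.20) and without Si-NEC pig 246-15 (−0.74). DDX58 (−0.25 to 0.45 when single pigs were left out) and DDX60 (−0.22 to 0.66) turned without pig 246-15, and ENPEP (−0.0478 to 1.10) without pig 226-15. S100A8 passed the threshold in females alone (2.82, limma adjusted p = 0.157). TECTA, picked because its groups did not overlap, passed it with array weights (0.74). No paired analysis was possible because the labels give the pigs no replicate numbers shared between groups. Unknown depth limits what can be said of genes near 0.5 FPKM.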
